A study of Mus musculus with 24 samples.

Results

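Retromer, retriever and the WASH complex sort membrane proteins out of endosomes, and 10 of their subunit genes were followed here in mouse embryonic fibroblasts (MEFs), all found by gene name in the deposited table of 55487 genes. They are the retromer genes *Vps35*, *Vps26a*, *Vps26b* and *Vps29*, the retriever gene *Vps35l*, and the WASH complex genes *Washc1*, *Washc2*, *Washc3*, *Washc4* and *Washc5*. The MEFs were WT or lacked the transcription factors TFEB and TFE3 (*tfeb tfe3* double knockout, DKO), and both genotypes were given DMSO, torin1, which inhibits the catalytic site of the kinase MTOR, or MK-8722, which activates the kinase AMPK. Each of the 6 groups held 4 libraries from cultures of different passages (7, 8, 9 and 11 in WT, 8, 9, 10 and 11 in DKO). Each genotype was a MEF line supplied by another laboratory, so that genotype and line cannot be told apart, and p-values measure the spread between cultures of these lines. The study asked which genes depend on TFEB and TFE3 when MTOR is inhibited or AMPK is activated.

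Retromer is built on VPS35, a long curved scaffold that carries VPS29 at one end and VPS26 at the other, and the paralogs VPS26A and VPS26B can each take the VPS26 place. Retriever is a related assembly in which VPS35L takes the place of VPS35 and VPS26C that of VPS26, while VPS29 is shared between both, and it works with the COMMD-CCDC22-CCDC93 (CCC) complex. The WASH complex activates Arp2/3 on endosomes, so that branched actin forms there: WASHC1 is its activating subunit, the long tail of WASHC2 (FAM21) binds VPS35, WASHC3 is the small subunit CCDC53, WASHC4 is SWIP, and WASHC5 is strumpellin. The cargo includes the mannose 6-phosphate receptors, which deliver hydrolases to lysosomes. TFEB and TFE3 are basic helix-loop-helix factors that enter the nucleus when MTORC1 is inhibited and bind E-box motifs near lysosomal and autophagy genes.

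Between 24668921 and 33332562 counts were assigned per library, and the 10 genes had 617 to 11465 counts in a library. Levels are given as CPM (counts on a common library size, scaled with TMM) in the order of replicates 1 to 4. Genes were called higher or lower where the fold was 1.2 or more and the Benjamini-Hochberg adjusted p was below 0.05 over the 15401 genes tested, all 10 among them, in the quasi-likelihood test of edgeR. Adjusted p-values in the text come from that test unless stated otherwise, and log2 fold changes are followed by their standard errors (SE). In WT with DMSO, *Tfeb* was at 22.9 ± 1.74 CPM (SD, n = 4), and in DKO with DMSO at 2.25 ± 0.289, a log2 difference of -3.35 (SE 0.095, adjusted p = 4.09e-18). The *Tfe3* transcript was at 120.2 ± 1.17 and 124 ± 2.11 CPM (SD, n = 4), a log2 difference of 0.04 (adjusted p = 0.279), so that its counts do not check the *Tfe3* label. Of 8 fibroblast markers, 7 were above 0 in every library, and *Thy1* was at 0 in 11 of 12 DKO libraries and in 0 of 12 WT libraries. Of the markers of other cell types, *Adgre1* was at 0 in all 24 libraries, *Epcam*, *Cdh1*, *Krt18*, *Pecam1*, *Kdr*, *Cdh5* and *Ptprc* reached at most 1.02 TPM (the length-corrected unit of salmon), *Krt8* ranged from 1.46 to 11.9 TPM and *Cd68* from 2.21 to 22.01 TPM. Of the fibroblast markers, the lowest library was at 2611 TPM for *Vim*, 978 for *S100a4*, 217 for *Col1a1* and 70.75 for *Col1a2*. *Pdgfrb* ranged from 8.51 to 22.15 TPM, *Col3a1* from 3.57 to 31.2 and *Pdgfra* from 1.21 to 54.8, ranges that overlapped with those of *Krt8* and *Cd68*. Bulk counts cannot tell a lower number of cells with a transcript from less of it per cell.

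TFEB and TFE3 can bind the E-box CACGTG and its extended form TCACGTGA, and the promoters of these genes were searched for both. RefSeq promoter windows on GRCm38.p6, from 250 bases before to 50 bases after an annotated start, matched 7 of the 10 genes with 9 windows. *Vps35*, *Vps35l* and *Washc5* were not matched. CACGTG, which reads the same on both strands, was found in the windows of 4 of the 7 genes, *Vps26a*, *Washc1*, *Washc2* and *Washc4*, against 8.09% of the 27025 genes with a window. TCACGTGA, which contains CACGTG and is also the same on both strands, was found for 3 of the 7, *Vps26a*, *Washc1* and *Washc2*, against 1.12% of all genes. TCATGTGA, searched on both strands, was found for 0 of the 7, against 1.15% of all genes. *Washc2* held TCACGTGA at 2 places, 22 and 6 bases before its start, and *Washc1* at 18 bases before its second, downstream start. *Vps26a* held it at 183 bases before its first start and again at 152 bases before its second, downstream start. In *Washc4* the CACGTG lay 18 bases after the start. A stretch with TCACGTGA is shown for each of the 3 genes, for *Vps26a* that with the site before its first start only. The paralog *Vps26b*, whose window held none of the 3 motifs, is shown beside them. The windows of *Vps29* and *Washc3*, not shown, also held none of the 3. Capitals mark TCACGTGA, and each sequence reads 5′ to 3′ on the strand of its gene. The *Washc2* stretch is chr6:116207933-116208052 on the plus strand, that of *Washc1* is chr17:66111615-66111644 on the plus strand, that of *Vps26a* is chr10:62486906-62487025 on the minus strand, and that of *Vps26b* is chr9:27030075-27030194 on the minus strand.
Washc2: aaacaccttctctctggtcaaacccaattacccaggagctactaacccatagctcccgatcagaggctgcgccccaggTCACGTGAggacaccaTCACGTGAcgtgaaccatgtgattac
Washc1: gggcggggacgcTCACGTGAggacgccgcc
Vps26a: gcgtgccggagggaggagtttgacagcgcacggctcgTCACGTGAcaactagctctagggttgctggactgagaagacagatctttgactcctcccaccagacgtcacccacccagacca
Vps26b: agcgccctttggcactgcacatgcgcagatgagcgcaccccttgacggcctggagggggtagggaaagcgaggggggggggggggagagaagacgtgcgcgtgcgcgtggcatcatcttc
These matches describe the letters in the windows, and binding at them was not measured in these libraries. Whether the motifs go with the changes under the drugs or between the genotypes was not tested.

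Per length, the shared subunit *Vps29* had the highest level of the 10 in WT with DMSO, at 94.5 ± 2.69 TPM (SD, n = 4). *Vps35* followed at 75.8 ± 3.33 TPM, then *Vps26a* at 69.2 ± 1.12 and *Washc5* at 67.0 ± 1.91, of which the last pair overlapped between libraries. *Washc3*, *Vps35l*, *Washc1* and *Washc2* came next, from 47.8 ± 1.78 down to 41.2 ± 1.98 TPM, and each overlapped with its neighbour. *Vps26b* was at 31.3 ± 0.949 and *Washc4* at 18.98 ± 1.24 TPM, and neither overlapped with the gene above it. These TPM count all transcripts of a gene, coding or not. In WT with DMSO, transcripts annotated for nonsense-mediated decay included one of 488 bases with 26.8% of the TPM of *Vps29*. Another, of 2288 bases, held 23.9% of that of *Vps26a*. For *Vps35*, a coding transcript of 3474 bases held 96.3%. The order over coding transcripts alone was not computed. With torin1 the order in WT was led by *Washc5* at 149 ± 9.19 TPM, whose libraries overlapped with those of *Vps35* at 133 ± 7.41, and *Washc2* was at 124 ± 7.40 TPM, overlapping with both *Vps35* and *Vps26a*, where with DMSO it had been below both without overlap. In DKO with torin1, *Washc2* was the eighth at 65.1 ± 3.47 TPM and *Washc5* the fifth at 78.5 ± 3.06.

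**Figure D1:**
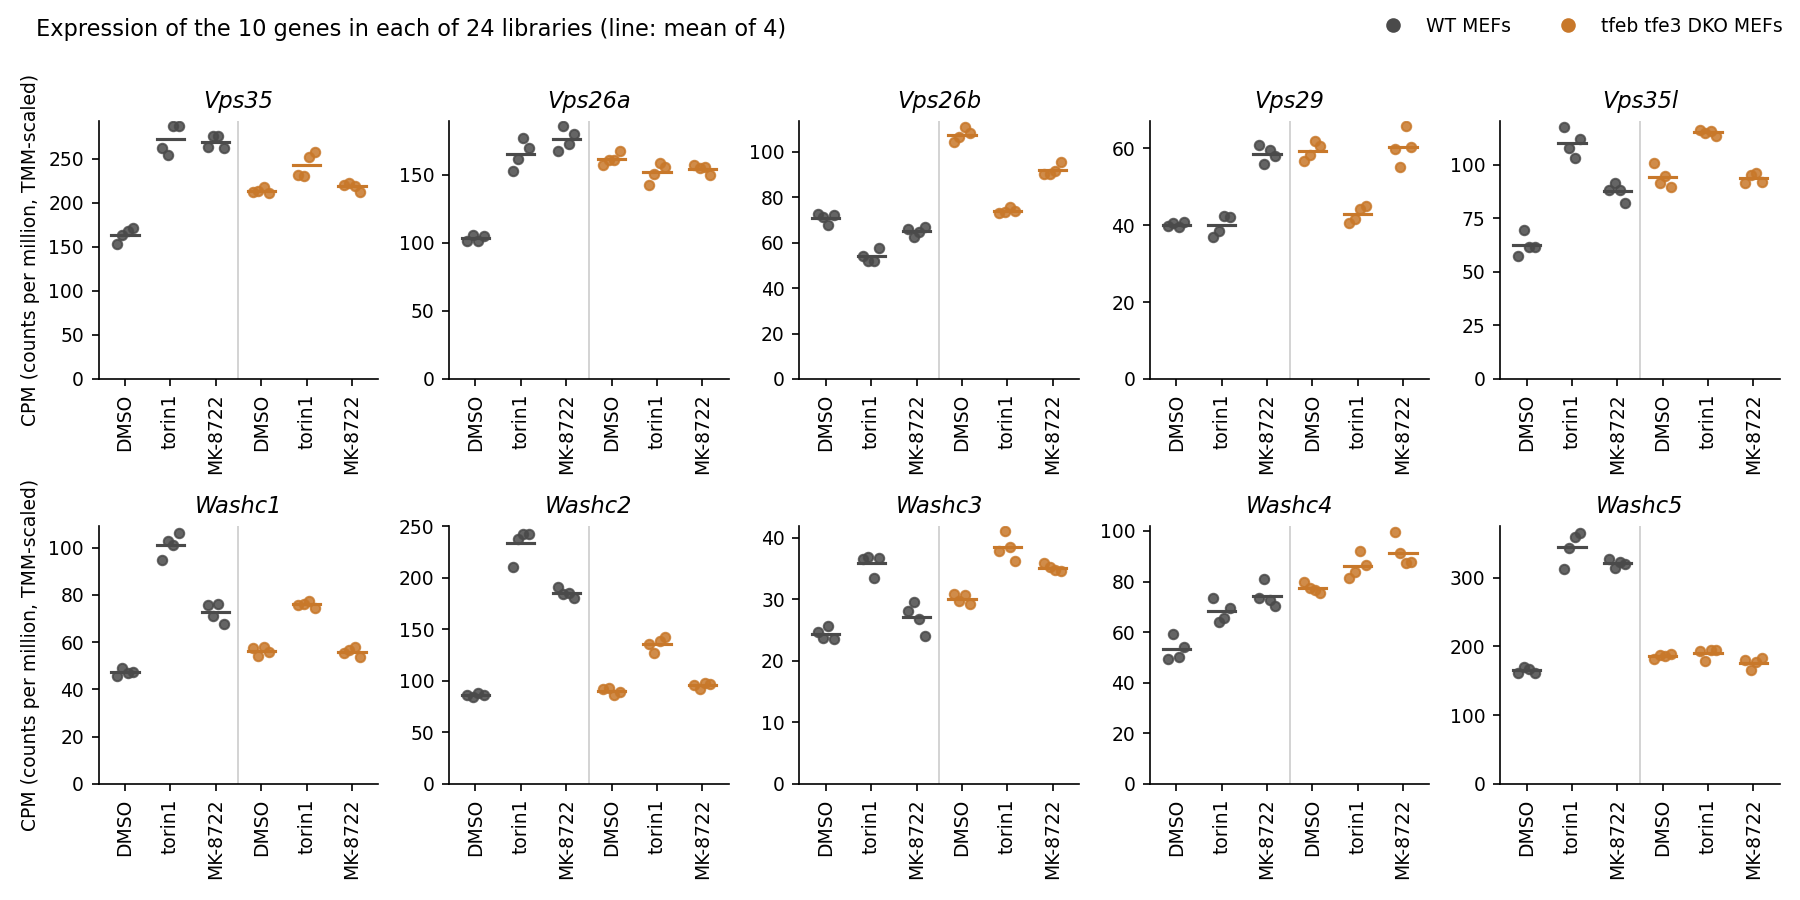
CPM (TMM-scaled; linear axes from 0) of each of the 10 genes in every library, by treatment, with WT MEFs in grey and *tfeb tfe3* DKO MEFs in orange; points are libraries and lines the means of 4. *Washc5* with either drug lies between 312 and 365 CPM in WT and between 166 and 194 in DKO, while *Vps26b* is lower with torin1 than with DMSO in both genotypes.

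In WT MEFs, torin1 raised 8 of the 10 genes and lowered 1, *Vps26b*, where 26.6% of all genes tested were called higher and 20.5% lower. MK-8722 raised 8 and lowered 0, where 10.3% of all genes were called higher and 5.87% lower. The median log2 fold change of the 10 was 0.71 with torin1, beside 0.049 over all genes, and 0.58 with MK-8722, beside -0.015. In DKO MEFs, torin1 raised 4 and lowered 2, where 23% and 20.2% of all genes were called, and the median of the 10 was 0.17, beside 0.021. Of the 10, 0 were called with MK-8722 in DKO, where 5.47% of all genes were called higher and 3.21% lower, with a median of 0.0067 beside 0. In that comparison 3 of the 10 had an unadjusted p under 0.05, a count for which no share of all genes was taken. The same genes passed the adjusted test and missed only the fold of 1.2. They were *Vps26b* at -0.22 (SE 0.036, adjusted p = 0.000151), *Washc3* at 0.22 (SE 0.052, adjusted p = 0.00364) and *Washc4* at 0.24 (SE 0.059, adjusted p = 0.00526), and for each the MK-8722 libraries did not overlap with DMSO. With both thresholds, both voom (limma) and the Wald test of DESeq2 called 0 of the 10. *Washc4* was called there without DKO MK-8722 replicate 3, at 0.26, and that library had an RNA integrity number of 7.9, where the other 23 had 9.7 to 9.9. Both drugs were compared to the same DMSO libraries of each genotype.

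**Figure D2:**
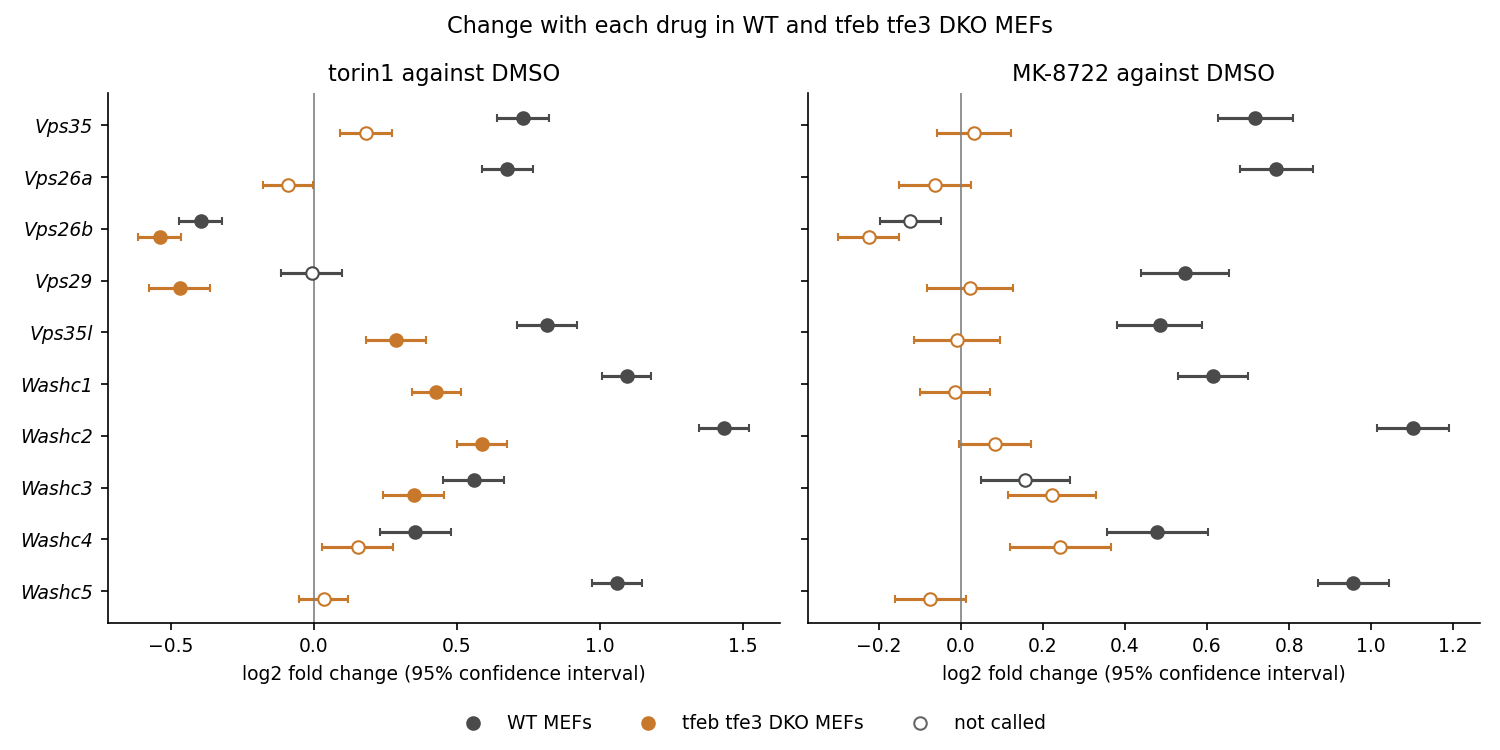
Log2 fold change of each gene with torin1 (left) and MK-8722 (right) against DMSO, with 95% confidence intervals, in WT (grey) and *tfeb tfe3* DKO MEFs (orange), 4 libraries per group; open points were not called. In WT the called rises run from 0.36 to 1.44 with torin1 and from 0.48 to 1.10 with MK-8722, and all DKO points for MK-8722 are open. The panels have different horizontal scales.

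The difference between genotypes in the log2 fold change of each drug, called the response in DKO compared to WT, was tested. The paper describes another criterion for dependence on TFEB and TFE3. It selected genes lower in DKO than in WT MEFs with both drugs compared to vehicle, and describes a step that took genes induced by a drug. Of that criterion, only the level in treated DKO against treated WT MEFs was compared here. In it, *Washc1*, *Washc2* and *Washc5* were called lower with both drugs, and *Vps35* with MK-8722 alone. Of all genes, 27.8% were called lower with torin1 and 25.4% with MK-8722, and the share lower with both was not counted. For torin1, 7 of the 10 had a lower response in DKO and 0 a higher one, where 6.33% of all genes were lower and 4.68% higher. For MK-8722, the same counts of 7 and 0 stood beside 4.08% and 1.42% of all genes. The 7 genes were the same for both drugs: *Vps26a*, *Vps29*, *Vps35*, *Vps35l*, *Washc1*, *Washc2* and *Washc5*. The medians of the 10 responses were -0.54 for torin1 and -0.58 for MK-8722, beside -0.0053 and 0.012 over all genes. *Vps26b*, *Washc3* and *Washc4* were not called in either. The counts of 7 stayed between 7 and 8 over the alternatives tried. *Thy1*, a marker, also differed between the genotypes, as given above, and its part in these differences was not tested.

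**Figure D3:**
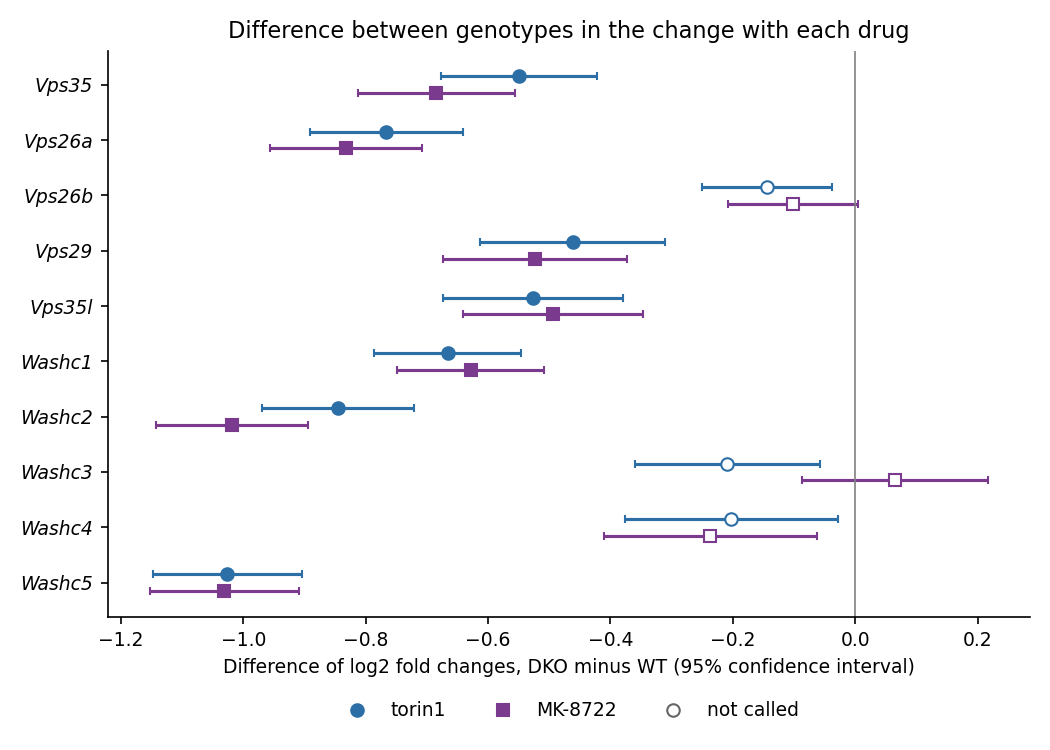
Difference between *tfeb tfe3* DKO and WT MEFs in the log2 fold change with torin1 (circles) or MK-8722 (squares), DKO minus WT, with 95% confidence intervals from 24 libraries; open symbols were not called. For 7 genes both symbols are filled and lie between -1.03 and -0.46, and those of *Vps26b*, *Washc3* and *Washc4* are open.

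Among the WASH complex genes, *Washc5* (ENSMUSG00000022350, GRCm38 chr15:59331997-59374167, minus strand), which encodes strumpellin, had the response to torin1 that was largest in size of the 10. In WT it was at 162, 171, 167 and 161 CPM with DMSO, at 312, 342, 359 and 365 with torin1 and at 327, 314, 322 and 319 with MK-8722. Every WT library with a drug was above every WT library with DMSO. In DKO it was at 182, 187, 186 and 188 with DMSO, at 194, 179, 194 and 194 with torin1 and at 179.6, 166, 177 and 183 with MK-8722. The libraries with each drug overlapped with those with DMSO. The log2 fold change in WT was 1.06 (SE 0.042, adjusted p = 4.11e-15) with torin1 and 0.96 (SE 0.042, adjusted p = 8.65e-14) with MK-8722. In DKO it was 0.035 (SE 0.042, adjusted p = 0.495) and -0.074 (SE 0.042, adjusted p = 0.228), with 95% confidence intervals of -0.051 to 0.12 and -0.16 to 0.012. The response was -1.03 (SE 0.059, adjusted p = 9.12e-11) for torin1 and -1.03 (SE 0.059, adjusted p = 5.62e-11) for MK-8722, and the latter and that of *Washc2*, -1.02, differed by less than their SE.

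*Washc2* (ENSMUSG00000024104, chr6:116208038-116262686, plus strand), the retromer-binding subunit whose promoter stretch is shown above, had the largest rise of the 10 in WT. With DMSO its WT libraries were at 85.8, 84.5, 88.7 and 86.1 CPM, with torin1 at 210.5, 238, 242 and 243 and with MK-8722 at 191, 184, 185 and 180. The 3 sets did not overlap, and torin1 replicate 1 was the lowest of its group. In DKO it was at 92.0, 93.2, 86.7 and 89.6 with DMSO, at 136, 127, 138 and 142 with torin1 and at 96.2, 92.1, 97.5 and 97.05 with MK-8722. Torin1 libraries were above the others in DKO too, and those with MK-8722 overlapped with DMSO. The rise with torin1 was 2.71-fold in WT, a log2 fold change of 1.44 (SE 0.043, adjusted p = 9.89e-17), and 1.505-fold in DKO, 0.59 (SE 0.042, adjusted p = 6e-11). With MK-8722 it was 2.15-fold in WT, 1.10 (SE 0.043, adjusted p = 1.26e-14), and the DKO value was 0.083 (SE 0.042, adjusted p = 0.18). The responses were -0.85 (SE 0.06, adjusted p = 1.17e-09) for torin1 and -1.02 (SE 0.06, adjusted p = 8.63e-11) for MK-8722.

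*Washc1* (ENSMUSG00000024101, chr17:66111545-66120503, plus strand) encodes the subunit that activates Arp2/3. In WT it was at 45.8, 49.2, 47.1 and 47.4 CPM with DMSO, at 94.9, 103, 101 and 106 with torin1 and at 75.7, 70.8, 76.0 and 67.6 with MK-8722. The DKO libraries were at 57.6, 54.1, 58.0 and 55.9 with DMSO, at 75.6, 76.3, 77.6 and 74.5 with torin1 and at 55.5, 56.6, 57.9 and 53.5 with MK-8722. Torin1 thus separated from DMSO in both genotypes, and MK-8722 separated from DMSO in WT and overlapped with it in DKO. The log2 fold change with torin1 was 1.10 (SE 0.041, adjusted p = 2.45e-15) in WT and 0.43 (SE 0.041, adjusted p = 6.04e-09) in DKO, and with MK-8722 it was 0.61 (SE 0.041, adjusted p = 9.78e-11) in WT and -0.014 (SE 0.041, adjusted p = 0.862) in DKO. The responses were -0.67 (SE 0.058, adjusted p = 3.13e-08) and -0.63 (SE 0.058, adjusted p = 7.5e-08). The transcript with the largest share, ENSMUST00000116556 (1831 bases), carried 59.7% ± 1.75 (SD, n = 4) of the TPM of *Washc1* in WT with DMSO and 66.3% ± 1.73 with torin1, and 61.1% ± 3.67 and 67.4% ± 3.52 in DKO. The next, ENSMUST00000072383 (2905 bases), carried 19.5% ± 1.34 in WT with DMSO and 13.2% ± 0.591 with torin1, and 19.5% ± 0.374 and 13.7% ± 1.43 in DKO. These shares were not tested, and the start that each transcript uses is not given here.

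*Washc3* and *Washc4*, the remaining WASH subunits, had smaller changes, and neither was called in the responses. *Washc3* (ENSMUSG00000020056, chr10:88201093-88246158, plus strand) ranged over 23.5 to 25.6 CPM with DMSO, 33.5 to 36.8 with torin1 and 24.02 to 29.6 with MK-8722 in WT, and over 29.1 to 30.9, 36.3 to 41.1 and 34.6 to 35.8 in DKO in the same order. It rose with torin1 in both genotypes, by 0.56 (SE 0.052, adjusted p = 3.03e-09) in WT and 0.35 (SE 0.051, adjusted p = 3.55e-06) in DKO. With MK-8722 it was below a fold of 1.2 in both, at 0.16 (SE 0.052, adjusted p = 0.024) in WT and 0.22 (SE 0.052, adjusted p = 0.00364) in DKO. *Washc4* (ENSMUSG00000034560, chr10:83543752-83596473, plus strand) ranged over 49.5 to 59.4 CPM with DMSO, 64.1 to 73.7 with torin1 and 70.3 to 80.8 with MK-8722 in WT, and over 75.3 to 79.7, 81.6 to 91.9 and 87.2 to 99.7 in DKO in the same order. For *Washc3*, torin1 and DMSO did not overlap in either genotype, and for *Washc4* all libraries with a drug were above those with DMSO. It rose in WT by 0.36 (SE 0.06, adjusted p = 1.85e-05) with torin1 and by 0.48 (SE 0.06, adjusted p = 1.72e-06) with MK-8722, and the DKO values were 0.15 (SE 0.059, adjusted p = 0.0306) and 0.24 (SE 0.059, adjusted p = 0.00526). Its responses of -0.20 (SE 0.084, adjusted p = 0.113) and -0.24 (SE 0.084, adjusted p = 0.106) had intervals of -0.38 to -0.029 and -0.41 to -0.063, and the one to MK-8722 was called without WT DMSO replicate 2, at -0.29. The responses of *Washc3* were -0.21 (SE 0.073, adjusted p = 0.0564) for torin1 and 0.065 (SE 0.073, adjusted p = 0.752) for MK-8722. The responses to the 2 drugs were also compared with each other, and 1 of the 10, *Washc3*, was called higher for MK-8722 than for torin1, at 0.27 (SE 0.072, adjusted p = 0.0128), and 0 lower, where 4.84% of all genes were called higher and 6.23% lower. That call was lost on leaving out any one of 8 libraries, WT torin1 replicates 1, 2 and 4, WT MK-8722 replicates 3 and 4, DKO torin1 replicates 1 and 4, and DKO MK-8722 replicate 1, with values of 0.21 to 0.26.

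Among the retromer genes, the scaffold *Vps35* (ENSMUSG00000031696, chr8:85260392-85299802, minus strand) rose in WT with both drugs. Its WT libraries were at 153, 163, 168 and 171 CPM with DMSO, at 262, 254, 287 and 287 with torin1 and at 264, 276, 276 and 262 with MK-8722. In DKO they were at 213, 214, 218 and 211 with DMSO, at 232, 230, 252 and 258 with torin1 and at 220.3, 223, 219.3 and 213 with MK-8722. The drug and DMSO libraries did not overlap in WT, and in DKO those of torin1 were all above DMSO while those of MK-8722 overlapped with it. The log2 fold changes in WT were 0.73 (SE 0.044, adjusted p = 2.7e-12) with torin1 and 0.72 (SE 0.044, adjusted p = 2.1e-11) with MK-8722. In DKO, torin1 gave 0.18 (SE 0.044, adjusted p = 0.000981), a fold of 1.14 and thus below 1.2, and MK-8722 gave 0.033 (SE 0.044, adjusted p = 0.663). The responses were -0.55 (SE 0.062, adjusted p = 1.27e-06) and -0.68 (SE 0.062, adjusted p = 5.52e-08).

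The paralogs in the VPS26 place moved apart. *Vps26a* (ENSMUSG00000020078, chr10:62455235-62486805, minus strand) was at 101, 106, 101.7 and 105 CPM in WT with DMSO, at 153, 162, 177 and 170 with torin1 and at 167, 186, 172 and 180.1 with MK-8722. *Vps26b* (ENSMUSG00000031988, chr9:27007771-27030065, minus strand) was at 72.6, 71.2, 67.7 and 72.0 with DMSO, at 54.3, 51.9, 51.8 and 57.8 with torin1 and at 66.2, 62.6, 64.7 and 67.0 with MK-8722 in the same WT libraries. Thus with either drug every WT library was above those with DMSO for *Vps26a* and below them for *Vps26b*. In DKO, *Vps26a* was at 157, 161, 161 and 167 with DMSO, 143, 151, 158 and 156 with torin1 and 158, 155, 156 and 150.2 with MK-8722, and *Vps26b* was at 104, 107, 111 and 108 with DMSO, at 73.1, 73.3, 75.7 and 74.0 with torin1 and at 90.4, 90.4, 91.6 and 95.7 with MK-8722. The 3 sets of *Vps26a* overlapped in DKO, and those of *Vps26b* did not. *Vps26a* rose in WT by 0.68 (SE 0.043, adjusted p = 6.14e-12) with torin1 and 0.77 (SE 0.043, adjusted p = 3.9e-12) with MK-8722, and its DKO values were -0.089 (SE 0.042, adjusted p = 0.0791) and -0.063 (SE 0.042, adjusted p = 0.327). Its responses were -0.77 (SE 0.06, adjusted p = 6.06e-09) and -0.83 (SE 0.06, adjusted p = 1.73e-09). *Vps26b* fell with torin1 in both genotypes, with log2 fold changes of -0.39 (SE 0.036, adjusted p = 3.08e-09) in WT and -0.54 (SE 0.036, adjusted p = 2.15e-11) in DKO, and its values with MK-8722 were -0.12 (SE 0.036, adjusted p = 0.0121) and -0.22 (SE 0.036, adjusted p = 0.000151), each below a fold of 1.2. Its responses were -0.14 (SE 0.051, adjusted p = 0.0628) for torin1 and -0.10 (SE 0.051, adjusted p = 0.319) for MK-8722, with intervals of -0.25 to -0.037 and -0.21 to 0.0044.

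The ratio of the TPM of *Vps26a* to that of *Vps26b*, which does not depend on how a library is scaled, was 2.13, 2.25, 2.29 and 2.17 in WT with DMSO, 4.22, 4.71, 5.31 and 4.39 with torin1, and 3.80, 4.48, 3.95 and 4.04 with MK-8722. In DKO it was 2.29, 2.25, 2.18 and 2.30 with DMSO, 2.95, 3.17, 3.05 and 3.18 with torin1, and 2.62, 2.58, 2.55 and 2.32 with MK-8722. With DMSO the ratios of both genotypes thus overlapped, and with each drug all libraries were above all DMSO libraries of their genotype. The mean log2 ratio rose by 1.07 with torin1 and 0.88 with MK-8722 in WT, and by 0.45 and 0.16 in DKO. Each of these gave p = 0.0286 in an exact two-sided permutation test of 4 against 4 libraries, the smallest value that its 70 splits allow, and an adjusted p of 0.0457 over 8 tests. Within a genotype each passage was present once with every treatment, and libraries of a passage deviated together. Paired by passage, each of these 4 ratios was higher with the drug in 4 of 4 passages, and an exact test of sign flips gave p = 0.125, the smallest that 4 pairs allow, and an adjusted p of 0.143, so that no call stands with the pairing. The ratio of *Vps35* to *Vps35l* was 1.58, 1.5, 1.73 and 1.60 in WT with DMSO, 1.30, 1.45, 1.64 and 1.54 with torin1, and 1.81, 1.88, 1.88 and 2.002 with MK-8722. It rose with MK-8722 in WT, by 0.24 on the log2 scale (exact permutation p = 0.0286, adjusted p = 0.0457; paired by passage, higher in 4 of 4 and adjusted p = 0.143), and torin1 and DMSO overlapped, with a difference of -0.12 (adjusted p = 0.229, exact permutation test). In DKO the ratio was 1.25, 1.37, 1.39 and 1.33 with DMSO, 1.21, 1.18, 1.32 and 1.30 with torin1, and 1.39, 1.43, 1.40 and 1.48 with MK-8722. Torin1 gave a difference of -0.092 and MK-8722 one of 0.095, with adjusted p of 0.163 and 0.0762 in the same exact permutation test.

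**Figure D4:**
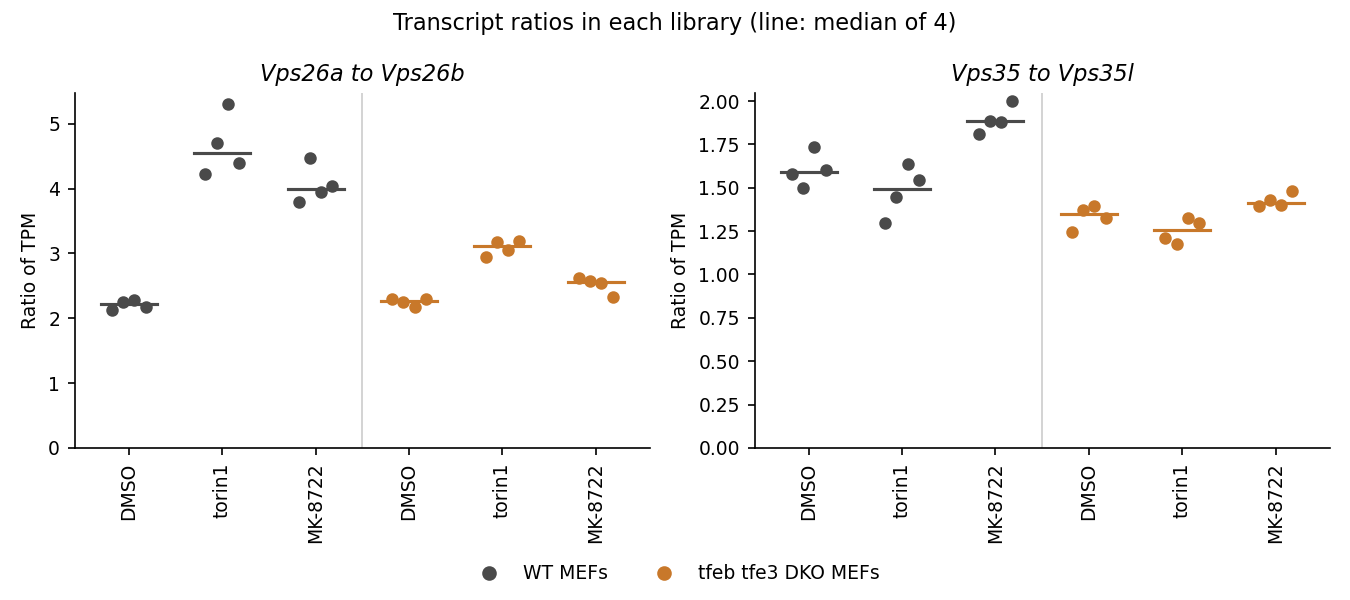
Ratio of TPM of *Vps26a* to *Vps26b* (left) and of *Vps35* to *Vps35l* (right) in every library (linear axes from 0), by treatment, in WT (grey) and *tfeb tfe3* DKO MEFs (orange); lines are medians of 4. The median of the left ratio goes from 2.21 with DMSO to 4.55 with torin1 in WT, and from 2.27 to 2.56 with MK-8722 in DKO.

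*Vps29* (ENSMUSG00000029462, chr5:122354369-122364984, plus strand), the subunit shared by retromer and retriever, was at different levels with the 2 drugs. In WT it was at 39.8, 40.5, 39.6 and 40.7 CPM with DMSO, at 37.0, 38.4, 42.4 and 42.1 with torin1 and at 60.9, 56.0, 59.4 and 58.1 with MK-8722. In DKO it was at 56.6, 58.3, 61.7 and 60.5 with DMSO, at 40.6, 41.5, 44.2 and 45.0 with torin1 and at 59.7, 55.0, 65.8 and 60.3 with MK-8722. The MK-8722 libraries were thus above the rest in WT, and the torin1 libraries below the rest in DKO. The log2 fold change with torin1 was -0.0065 (SE 0.052, adjusted p = 0.924) in WT, with an interval of -0.11 to 0.10, and -0.47 (SE 0.051, adjusted p = 5.29e-08) in DKO. With MK-8722 it was 0.55 (SE 0.051, adjusted p = 2.55e-08) in WT and 0.023 (SE 0.051, adjusted p = 0.815) in DKO. The responses were -0.46 (SE 0.073, adjusted p = 0.000111) for torin1 and -0.52 (SE 0.072, adjusted p = 3.03e-05) for MK-8722. Of all runs of 52 bases (the read length) in its transcripts, 5.68% also occur in transcripts of other genes, with *Fam216a*, on the opposite strand, sharing the most.

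The retriever scaffold *Vps35l* (ENSMUSG00000030982, chr7:118740226-118842966, plus strand) was at 57.6, 69.3, 61.6 and 61.6 CPM in WT with DMSO, at 118, 108, 103 and 112 with torin1 and at 88.3, 91.5, 88.0 and 82.2 with MK-8722. Those of DKO were at 101, 91.4, 94.9 and 89.5 with DMSO, at 116, 115, 116 and 114 with torin1 and at 91.5, 94.98, 96.1 and 91.8 with MK-8722. Torin1 libraries were above DMSO in both genotypes, and MK-8722 libraries were above DMSO in WT and overlapped with it in DKO. The log2 fold change was 0.82 (SE 0.05, adjusted p = 4.52e-12) with torin1 and 0.48 (SE 0.05, adjusted p = 1.21e-07) with MK-8722 in WT. It was 0.29 (SE 0.05, adjusted p = 3.11e-05) with torin1 in DKO, which was 0.26 and below a fold of 1.2 without DKO DMSO replicate 4, and -0.0092 (SE 0.05, adjusted p = 0.931) with MK-8722. The responses were -0.53 (SE 0.071, adjusted p = 1.56e-05) and -0.49 (SE 0.071, adjusted p = 4.93e-05). In this gene 6.64% of the runs of 52 bases were shared, with *Knop1*, on the opposite strand, sharing the most, and in *Washc2* 5.56% were, with *Gm44103*, also on the opposite strand, sharing the most. The other genes shared at most 2.34%.

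With DMSO alone, 7 of the 10 were higher in DKO than in WT and 0 lower, where 23.5% of all genes were called higher and 24.6% lower. The called genes were *Vps26a* at 0.64, *Vps26b* at 0.60, *Vps35l* at 0.59, *Vps29* at 0.56, *Washc4* at 0.54, *Vps35* at 0.38 and *Washc3* at 0.31 (adjusted p from 1.8e-12 to 1.94e-05). *Washc3* was at 0.26, below a fold of 1.2, without the WT libraries of passage 11. *Washc1* at 0.25 (SE 0.041, adjusted p = 1.27e-05), *Washc5* at 0.17 (SE 0.042, adjusted p = 0.00118) and *Washc2* at 0.067 (SE 0.042, adjusted p = 0.173) did not reach a fold of 1.2. With torin1, 2 were higher in DKO and 3 lower, where 24% and 27.8% of all genes were called. The genes called lower were *Washc5*, 1.81-fold lower, *Washc2*, 1.72-fold lower, and *Washc1*, 1.33-fold lower, with adjusted p of 3.7e-14, 2.4e-13 and 5.8e-09. The higher genes were *Vps26b* at 0.46 and *Washc4* at 0.33. With MK-8722, 3 were higher and 4 lower, where 23.3% and 25.4% were called. The lower genes were *Washc2*, 1.93-fold lower, *Washc5*, 1.82-fold lower, *Washc1*, 1.30-fold lower, and *Vps35*, 1.23-fold lower (adjusted p from 9.06e-15 to 2.56e-06). The higher genes were *Vps26b* at 0.50, *Washc3* at 0.37 and *Washc4* at 0.30, and *Washc4* was at 0.25, below a fold of 1.2, without DKO MK-8722 replicate 1. *Vps26a*, *Vps29* and *Vps35l*, all higher in DKO with DMSO, were not called in either comparison with a drug. With *Vps26a*, for example, WT libraries with a drug reached 153 to 186 CPM, and DKO libraries with DMSO were at 157 to 167.

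The drugs were also compared with each other. In WT, 2 of the 10 were higher with MK-8722 than with torin1 and 4 lower, where 20% and 24.9% of all genes were called. *Vps29* was higher by 0.55 (SE 0.051, adjusted p = 4.67e-09) and *Vps26b* by 0.27 (SE 0.036, adjusted p = 1.13e-06), the latter falling to 0.25, below a fold of 1.2, without WT torin1 replicate 2. *Washc1* at -0.48, *Washc3* at -0.40, *Washc2* at -0.33 and *Vps35l* at -0.33 were lower (adjusted p from 1.06e-09 to 5.75e-06). In DKO, 2 were higher and 3 lower, where 19.3% and 21.1% were called. *Vps29* at 0.49 and *Vps26b* at 0.31 were the higher genes, and *Washc2* at -0.51, *Washc1* at -0.44 and *Vps35l* at -0.30 the lower ones (adjusted p from 8.36e-10 to 2.28e-05). *Vps35* and *Vps26a* were not called between the drugs in either genotype, with WT values of -0.015 (interval -0.11 to 0.075) and 0.092 (interval 0.0041 to 0.18).

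The genes whose products work with these complexes were counted in lists. Of 14 partners of retriever and the CCC complex, 4 had a lower response to torin1 in DKO and 7 to MK-8722, and 0 a higher one, where 6.33% of all genes were lower for torin1 and 4.08% for MK-8722. The list medians were -0.19 and -0.24, beside -0.0053 and 0.012 over all genes. *Vps26c*, the VPS26 of retriever, had in WT 36.3 ± 0.583 CPM (SD, n = 4) under DMSO, 43.9 ± 1.37 under torin1 and 53.5 ± 2.65 under MK-8722, and 47.0 ± 1.64, 41.6 ± 2.54 and 44.1 ± 1.65 in DKO. Its responses were -0.45 (SE 0.061, adjusted p = 2.04e-05) and -0.65 (SE 0.061, adjusted p = 1.02e-07), and its promoter window held none of the 3 motifs. *Ccdc22*, a CCC subunit, rose in WT by 1.04 (SE 0.066, adjusted p = 7.32e-12) with torin1 and 0.61 (SE 0.066, adjusted p = 2.42e-07) with MK-8722. In DKO it rose by 0.35 (SE 0.065, adjusted p = 8.4e-05) with torin1, and with MK-8722 it was at -0.21 (SE 0.065), not called. It was higher in DKO than in WT with DMSO, by 0.79 (adjusted p = 4.78e-10). With torin1 and MK-8722 the genotypes were not called different, at 0.098 and -0.025. The responses of *Ccdc22* were -0.69 (SE 0.092, adjusted p = 1.4e-05) and -0.82 (SE 0.093, adjusted p = 1.9e-06). *Ccdc93*, its partner, had responses of -0.17 (SE 0.066, adjusted p = 0.0833) and -0.48 (SE 0.066, adjusted p = 2.88e-05), of which the second was called. *Commd3* and *Commd8*, named after their values were seen to complete these counts, were lower too, *Commd3* at -0.41 (adjusted p = 0.00116) and -0.31 (adjusted p = 0.0199) and *Commd8* for MK-8722 at -0.31 (adjusted p = 0.00733). *Commd4* was called lower in both responses, at -0.46 and -0.58, and *Commd9* in the response to MK-8722, at -0.58.

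Of 9 sorting nexins tested, of 10 listed, 2 had a lower response to each drug and 0 a higher one, beside the same 6.33% and 4.08% of all genes. They were *Snx2*, a membrane-binding partner of retromer, at -0.59 (SE 0.055, adjusted p = 1.04e-07) for torin1 and -0.62 (SE 0.055, adjusted p = 5.18e-08) for MK-8722, and *Snx32*, at -0.61 (SE 0.21, adjusted p = 0.0463) and -0.75 (SE 0.21, adjusted p = 0.027). Of 9 regulators and adaptors, 4 were lower and 1 higher for torin1, and 2 lower and 0 higher for MK-8722, where 4.68% and 1.42% of all genes were higher. *Rab7*, the late endosomal GTPase that recruits retromer, had responses of -0.45 (SE 0.045, adjusted p = 2.14e-07) and -0.46 (SE 0.045, adjusted p = 1.57e-07). Torin1 did not raise *Rab7* in WT, at -0.15 (not called), and lowered it in DKO, at -0.61 (adjusted p = 4.27e-13). With MK-8722 it was at 0.38 (adjusted p = 3.8e-09) in WT and -0.080 (adjusted p = 0.0769) in DKO. *Dnajc13*, a chaperone that acts with WASH, had responses of -0.42 (SE 0.054, adjusted p = 8.83e-06) and -0.52 (SE 0.054, adjusted p = 5.11e-07). *Tbc1d5*, which turns RAB7 off, was lower for torin1, at -0.32, as was *Rab29*, at -0.36 (adjusted p = 0.0038 and 0.0483). The higher gene was *Ehd1*, also named after its values were seen, at 0.31 (adjusted p = 0.0117). Of 12 genes for Arp2/3 and capping protein, on which WASH acts, 0 were called in either response (edgeR), and 4 and 1 had an unadjusted p under 0.05 for torin1 and MK-8722. Torin1 lowered 7 of these 12 in WT and 5 in DKO and raised 0, where 20.5% and 20.2% of all genes were lower. With MK-8722, 0 were called in either genotype, beside 5.87% and 3.21% of all genes lower. By unadjusted p under 0.05, 8 and 5 of the 12 passed in WT and DKO. The share of all genes with an unadjusted p under 0.05 was not counted, so these counts cannot be set against the shares called. Of 6 other activators of Arp2/3 tested, of 7 listed, *Wasf2* had a higher response to torin1, at 0.29 (SE 0.048, adjusted p = 0.00019), and 0 were called for MK-8722. Of 12 cargo genes, 1 was lower and 1 higher for torin1, and 1 lower for MK-8722, shares near the 6.33% lower and 4.68% higher for torin1 and the 4.08% lower for MK-8722 of all genes. *Igf2r*, the cation-independent mannose 6-phosphate receptor, was the lower gene for both drugs, at -0.33 (SE 0.11, adjusted p = 0.0474) and -0.62 (SE 0.11, adjusted p = 0.000729). It was already lower in DKO with DMSO, at -0.97 (SE 0.08, adjusted p = 4.21e-10). Torin1 raised it in WT by 0.79 (adjusted p = 1.26e-08) and in DKO by 0.45 (adjusted p = 3.83e-05). With MK-8722 it was at 0.83 (adjusted p = 3.43e-08) in WT and 0.20 (adjusted p = 0.0733) in DKO. *Itga5*, an integrin, was higher for torin1, at 0.45 (SE 0.10, adjusted p = 0.00241).

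The genes with the most similar pattern over the 24 libraries were found by the root mean square difference of log2 CPM, each gene centred on its own mean, among 15400 other genes. For *Washc5* they were *Glmp* at 0.073, *Ctsa* at 0.12 and *Dhtkd1* at 0.12, where the pattern of *Washc5* itself had an SD of 0.44. For *Vps35*, with an SD of 0.26, they were *Snx2* at 0.087, *Sgpl1* at 0.087 and *Pacs2* at 0.094, and *Vps26a* came eighth at 0.12. For *Vps35l*, with an SD of 0.30, they were *Tex264* at 0.10, *Cplx2* at 0.12 and *Ypel5* at 0.12. These values are descriptions over libraries that share their groups.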

How the data were processed

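mRNA of 24 libraries was measured with the polyA-selecting Universal Plus protocol and 52-bp paired-end reads. According to their methods, the authors ran nf-core/rnaseq v3.11.2 with STAR on GRCm38 (Ensembl release 102), with unique molecular identifiers considered. The deposited values are those of salmon, estimated counts per gene and, per transcript, estimated counts and TPM. The treatment time of these libraries and the batch removed by the authors are not given in the sources used here, and the labels name 1 batch. Whether counting used strand is not stated. Here, estimated counts were rounded, filtered (filterByExpr, minimum count 10), scaled with TMM and fitted with edgeR 4.0.16 (quasi-likelihood, legacy form, 1 mean per group, all libraries, 12 contrasts). limma 3.58.1 and DESeq2 1.42.0 served as alternatives, beside other scalings, filters, blocks and left-out libraries. TPM, summed per gene, served for levels between genes and ratios (exact permutation tests). The procedure was tested on simulated data. Counts differed beyond sampling noise in all 36 pairs of replicates (chi-square per degree of freedom 3.97 to 40.5). Deviations of libraries with the same replicate number correlated between -0.804 and 0.941 over 60 pairs, so the numbers do not pair libraries; those of 1 passage and genotype correlated between 0.128 and 0.941 over 24 pairs, so passages, given in the labels, pair libraries within a genotype. Coordinates are GENCODE M21 on GRCm38, and promoters RefSeq on GRCm38.p6.

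The 10 genes and the lists were chosen with earlier results of these data known. Named beside them are *Tfeb* and *Tfe3*, from each list at most 4 genes with the largest called response, *Vps26c*, *Ccdc22* and *Ccdc93*, and the 3 genes most similar to *Vps35*, *Vps35l* and *Washc5*. *Commd3*, *Commd8* and *Ehd1* fall outside this rule and were named after their values were seen.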

Additional observations from a re-analysis of the deposited data

Results flagged for a closer look

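The change with a drug differed between the genotypes for 7 of the 10 genes by the test of the difference itself. For torin1 the differences of log2 fold change, DKO minus WT, were -0.77 for *Vps26a*, -0.46 for *Vps29*, -0.55 for *Vps35*, -0.53 for *Vps35l*, -0.67 for *Washc1*, -0.85 for *Washc2* and -1.03 for *Washc5*. For MK-8722 they were -0.83 for *Vps26a*, -0.52 for *Vps29*, -0.68 for *Vps35*, -0.49 for *Vps35l*, -0.63 for *Washc1*, -1.02 for *Washc2* and -1.03 for *Washc5*. For *Washc3* the difference was -0.21 for torin1 and 0.065 for MK-8722, neither of them called. The latter value minus the former was 0.27, which was called (edgeR, adjusted p = 0.0128).

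In 3 of 60 sets of 4 libraries, a library lay apart from the other 3 by Dixon's test, and chance alone gives about 1 in 20, or 3 of 60. *Washc2* was at 210.5 CPM in WT torin1 replicate 1, against 238 to 243 in the others. *Washc3* was at 33.5 CPM in WT torin1 replicate 3, against 36.5 to 36.8. *Washc5* was at 179 CPM in DKO torin1 replicate 2, against 194 in each of the others.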

How the results depend on the processing

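Of 928 recomputed counts of members called, 902 stayed within 1.5 times the reported count, and of 3529 recomputed log2 fold changes, 3474 kept direction and call, 32 lost the call, 10 gained it and 13 changed sign, each of the latter near 0 and not called. Under adjusted p alone, members lower with MK-8722 in WT became 1, those higher and lower with MK-8722 in DKO 2 and 1, those lower in DKO than in WT with torin1 5, and those lower with MK-8722 than with torin1 in DKO 6. Under library size alone, and under a test against a fold of 1.2 (glmTreat), members higher in DKO with torin1 became 1 and those higher with MK-8722 than with torin1 in WT 1, the latter also with at least 10 counts in every library; glmTreat also gave 1 for those higher with MK-8722 than with torin1 in DKO. The *Washc3* difference between drugs became 0 genes with DESeq2's size factors, no filter, glmTreat, DESeq2's Wald test and without the DKO libraries of passage 8. Leaving out single libraries, that count ranged from 0 to 1, members higher with MK-8722 in DKO from 0 to 1, and members higher with MK-8722 than with torin1 in WT from 1 to 2.

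Library size alone moved the median of all genes to 0.14 for torin1 in WT, -0.16 for DKO against WT with torin1 and -0.12 for MK-8722 against torin1 in WT, beside 0.049, -0.036 and -0.045 with TMM. It gave 5021 higher and 2337 lower genes for torin1 in WT (4100 and 3153 with TMM), 2629 and 5623 for DKO against WT with torin1 (3692 and 4283), 472 and 1306 for the response to torin1 (721 and 975), 1105 and 701 for the difference of responses (745 and 960), and 2345 and 4621 for MK-8722 against torin1 in WT (3083 and 3833). Under it, *Washc3* at 0.24 with DMSO, *Washc4* at 0.21 with torin1 and 0.22 with MK-8722 (all DKO against WT) and *Vps26b* at 0.19 (MK-8722 against torin1 in WT) lost their calls, no called member changed direction, and *Washc3* was also called lower in the response to torin1, at -0.26 (adjusted p = 0.0196).

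The value of *Vps29* with torin1 in WT changed sign to 0.085 with library size alone, 0.021 with at least 10 counts in every library, 0.011 with a length offset and 0.0015 without the WT libraries of passage 11, and ranged over -0.063 to 0.012 without single libraries. With MK-8722 in DKO, *Washc1* was at 0.017 with a length offset, and without single libraries *Vps29* ranged over -0.024 to 0.064, *Vps35l* over -0.031 to 0.025 and *Washc1* over -0.034 to 0.0044.

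With the replicate number as a block, the ratio of *Vps26a* to *Vps26b* rose by 1.07 and 0.88 in WT and 0.45 and 0.16 in DKO, and that of *Vps35* to *Vps35l* by 0.24 with MK-8722 in WT, each with adjusted p = 0.125 in an exact test of sign flips whose 16 patterns allow no smaller p. The block changed no call of a member in edgeR, where it gave 733 higher and 992 lower genes for the response to torin1. A block for each passage of each genotype, chosen after seeing the data, changed no member call either, took the adjusted p of those 5 ratio differences (1.07, 0.88, 0.45, 0.16 and 0.24) to 0.143, and gave 1038 and 1329 for torin1 and 486 and 906 for MK-8722, beside 721 and 975 and 218 and 628 without a block. Without single libraries the ratio differences ranged over 1.00 to 1.11 and 0.83 to 0.91 for *Vps26a* to *Vps26b* in WT, 0.44 to 0.48 and 0.14 to 0.19 in DKO, and, with MK-8722, 0.21 to 0.28 in WT and 0.063 to 0.12 in DKO for *Vps35* to *Vps35l*, with fewer splits and thus a larger smallest p.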
